A study of Mus musculus with 18 samples.

Results

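Replication-dependent histone genes were followed as a group in mouse aortae carrying an edited CArG box in the promoter of Tspan2. The group was chosen by name: every gene symbol beginning with Hist1h, Hist2h, Hist3h or Hist4h that had at least 1 count over the 18 libraries. Of the 55453 gene symbols in the tables, 70 had such a name and 60 had a count. These 60 comprised 6 genes for linker histone H1, 14 for H2A, 16 for H2B, 11 for H3 and 13 for H4. By position, 49 lay on chromosome 13, 7 on chromosome 3, 3 on chromosome 11 and 1 on chromosome 6.

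The study edited a CArG box, the binding site of serum response factor, by 2 methods and measured the transcriptome of the aorta by bulk RNA sequencing of whole tissue. In the HDR experiment, Cas9 with a guide RNA and an oligonucleotide template changed 3 base pairs, and 5 wild-type (WT) aortae were set beside 5 homozygous Tspan2 sg/sg aortae, all from mice aged 12 weeks and labelled C57BL/6, with 3 females and 2 males per genotype. In the PE2 experiment, prime editor 2 changed a single base of the same box, and 4 WT aortae (3 females and 1 male) were set beside 4 homozygous Tspan2 peg/peg aortae (all female), from mice aged 8 weeks and labelled FVB/N/B6(Cg)-Tyrc-2J/J. Experiment, age and labelled strain therefore change together and cannot be told apart. The methods differ from these labels: they give the same strains for both editing methods, with founders of each bred to C57BL/6J. The labels describe single-end reads of 100 nt from a TruSeq RNA kit and the methods reads of 75 nt from a TruSeq stranded kit, and both name selection with oligo-dT. The HDR columns carry numbers other than those of the sample labels, so the sex of a single HDR library is not known.

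Replication-dependent histone genes supply the bulk of the histones that package DNA as it is copied. Their transcripts usually have no introns and no poly(A) tail, and end instead a few bases after a short stem-loop that is bound by the stem-loop binding protein Slbp and cut by the U7 snRNP. Several of these genes can also give a polyadenylated transcript when the gene is read past the stem-loop, a form known from cells that have left the cell cycle. The RNA that oligo-dT selects is therefore not a full account of histone mRNA.

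The libraries held 17290992 to 24880385 counts in HDR and 38820265 to 44895615 in PE2. Tspan2 was read first as a check of the labels. In HDR its level, in CPM (counts scaled to the library's size, here after TMM), was 112, 209, 265, 253 and 205 in the WT libraries and 20.4, 22.1, 15.95, 29.3 and 36.6 in the mutant libraries. In PE2 it was 194, 284, 208 and 186 in WT and 25.5, 25.5, 11.9 and 16.9 in the mutants. Every mutant library was below every WT library, and 8 smooth muscle markers, led by Acta2 and Myh11, summed to 15982 to 58080 CPM per library. Tspan2 was the only gene called by edgeR in either experiment.

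The stem-loop shows how alike these transcripts are at their ends. It was searched for on the transcript strand as a stem of 6 base pairs around a loop of 4 bases, starting with GG and ending with CC, and was found in 41 of the 60 genes in Gencode M21 (GRCm38) and in 1.35% of all protein-coding transcripts. A poly(A) signal, AATAAA or ATTAAA, stood in the last 50 bases of an annotated transcript of 14 of the 60 genes, against 50.2% of all protein-coding transcripts. Of these 14 genes, 13 also had the stem-loop, and the exception was Hist2h2be. Several genes without a stem-loop, such as Hist1h1b and Hist2h2bb, have 0 annotated bases after the stop codon. A stem-loop or signal beyond the stop codon could not be found in these. Because the annotated ends differ while the loops hardly do, the loops of 3 genes that were nearly absent from PE2 are shown above those of 2 genes that were not. Capitals mark the stem-loop, and the places are chr13:23621777-23621802 (-), chr13:23581945-23581970 (+), chr3:96220413-96220438 (-), chr13:23739507-23739532 (+) and chr11:58955167-58955192 (+).
Hist1h1e: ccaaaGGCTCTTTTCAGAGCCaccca
Hist1h4d: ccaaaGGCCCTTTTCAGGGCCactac
Hist2h2ac: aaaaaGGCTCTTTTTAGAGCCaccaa
Hist1h1c: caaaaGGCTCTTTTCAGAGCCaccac
Hist3h2a: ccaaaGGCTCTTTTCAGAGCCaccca
Hist1h1e, Hist1h1c and Hist3h2a share 1 loop, which was also the commonest in the family, with 28 transcripts. Hist1h4d has the form found in 7 transcripts. In the annotation of Hist1h1e, 1153 bases followed the loop, and in that of Hist1h1c 840 bases.

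In WT aortae of the HDR experiment the family was led by linker and H4 genes, and in those of PE2 by Hist1h2bc, Hist1h1c and Hist2h2be, of which the last 2 have an annotated poly(A) signal. Per kilobase of annotated exon, the highest mean levels in HDR WT were those of Hist1h4h at 55.5 ± 36.0 CPM (SD, n = 5), Hist1h1c at 50.7 ± 7.53, Hist1h4d at 48.0 ± 17.8 and Hist1h1e at 36.8 ± 5.40. The SDs of the first 3 overlapped, and that of Hist1h1e overlapped those of Hist1h4h and Hist1h4d, so their order was not resolved. These levels also rest on the annotated ends, which run 1153 bases past the loop in Hist1h1e and 46 in Hist1h4h. In PE2 WT the order was Hist1h2bc at 29.4 ± 4.15 CPM per kilobase (SD, n = 4), Hist1h1c at 28.7 ± 3.55 and Hist2h2be at 8.55 ± 0.896, and the first 2 did not differ beyond their spread. Hist1h1c, Hist1h2bc and Hist2h2be made up 39.1%, 29.8% and 19.6% of the summed family level in PE2 WT.

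Between the WT groups the levels of many members differed by orders of magnitude. Hist1h1e, an H1 gene, stood at 75.4, 53.6, 78.2, 78.6 and 69.2 CPM in HDR WT and at 0.280, 0.250, 0.552 and 0.245 CPM in PE2 WT. Hist1h4d, an H4 gene, stood at 29.9, 41.4, 52.6, 70.3 and 79.1 CPM in HDR WT and at 0.204, 0.125, 0.154 and 0.0981 CPM in PE2 WT. For both genes every HDR library was far above every PE2 library. Hist2h2ac, an H2A gene at 10.7 ± 3.71 CPM in HDR WT (SD, n = 5), had no count in the 4 PE2 WT libraries, which makes it at least 587-fold lower against a floor of 3 counts over that group. Hist1h2bc, at 28.2 ± 14.5 and 34.0 ± 4.79 CPM, and Hist3h2a, at 4.30 ± 0.673 and 4.16 ± 0.269 CPM, did not pass the test (adjusted p = 0.473 and 0.836 in edgeR). Hist2h2be was 1.44 times as high in PE2 WT as in HDR WT (log2 difference 0.53, SE 0.16, adjusted p = 0.00788). Of the 38 members tested over all 4 groups, 31 were lower in PE2 WT and 2 higher, where the background was 29.6% of all genes tested lower and 26.1% higher. A member low in PE2 could enter this fit only through its HDR level, so the count of lower members was partly set by the filter. Within the single experiments, 31 members passed the filter in HDR and 14 in PE2.

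**Figure D1:**
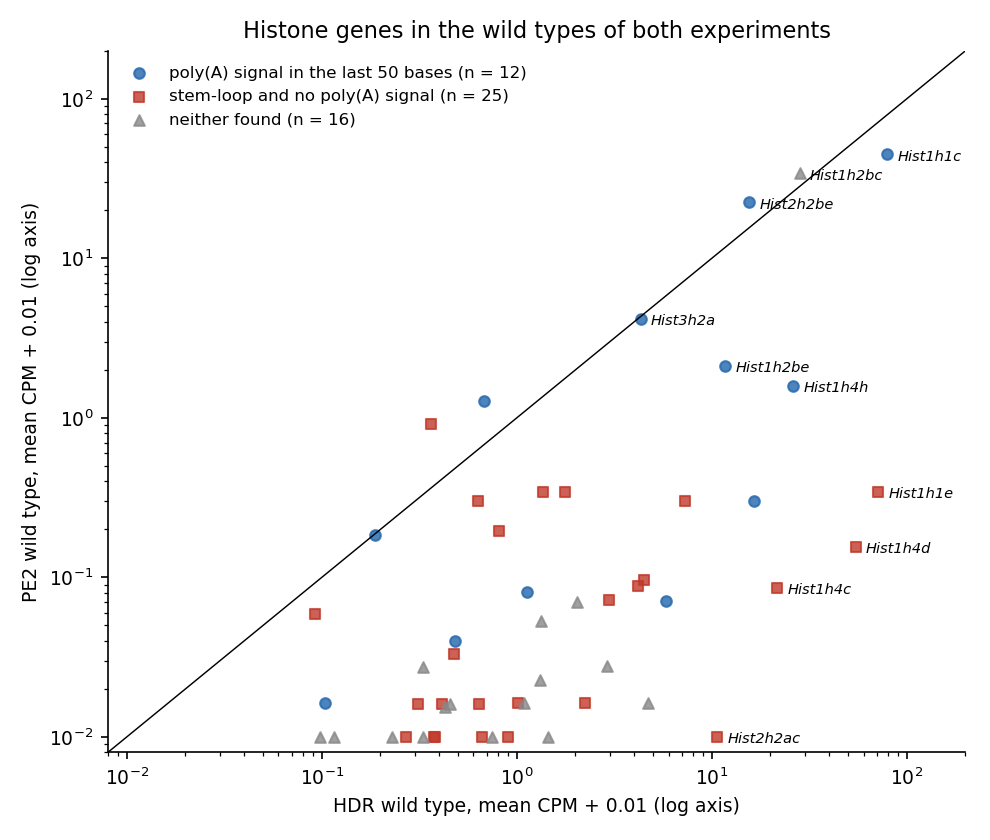
Mean level of each histone gene in the HDR WT (x, n = 5) and PE2 WT libraries (y, n = 4), as CPM plus 0.01 on log axes, for the 53 members with at least 10 counts over both groups. Symbols give the annotated transcript end, and the line marks equal levels: 25 genes with a stem-loop and no poly(A) signal mostly lie far under the line, and Hist1h1c, Hist1h2bc, Hist2h2be and Hist3h2a lie near it.

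The split followed the annotated end only in part. Among members with at least 10 WT counts, the 25 with a stem-loop and no poly(A) signal summed to 189 CPM in HDR WT and 3.23 CPM in PE2 WT, a ratio of 58.7. The 12 with a poly(A) signal summed to 162 and 76.9 CPM, a ratio of 2.10, and the 16 with neither to 45.6 and 34.2 CPM, of which Hist1h2bc gave most. These sums rest on a few abundant genes, such as Hist1h1c and Hist2h2be among those with a signal. Over members, the median log2 difference of PE2 WT from HDR WT, on CPM plus 0.01, was -5.26 for the 25 with a stem-loop alone, -2.56 for the 12 with a signal and -4.84 for the 16 with neither, so most members of each kind were lower in PE2 WT. Most of those with neither have an annotation that stops at or near the stop codon, so their true transcript end is not known here. Hist1h4h, at 26.1 and 1.58 CPM, and Hist2h4, at 16.5 and 0.290 CPM, have a poly(A) signal and were nevertheless lower in PE2 WT. RNAs known to lack a poly(A) tail moved with the experiment as well. Rn7sk, the 7SK RNA, ranged from 11089 to 27134 CPM over the 10 HDR libraries and from 0 to 0.265 CPM over the 8 PE2 libraries, and Rmrp from 1377 to 2897 CPM and from 0 to 0.145 CPM. The 12 RNAs of this kind, a list made after the values were seen, summed to 12848 to 30592 CPM per library in HDR and to 0.585 to 1.24 CPM in PE2. Their part in the histone difference was not tested. As in any bulk tissue, fewer cells of a type and less RNA per cell cannot be told apart.

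Within the PE2 experiment, 14 of the 60 members passed the filter on low counts, and Hist2h2be and Hist1h2al had the smallest p. Hist2h2be encodes a histone H2B and lies at chr3:96221119-96223738 (+). Its annotated exons hold 2620 bases, none of which shares a 75-base window with another gene. It stood at 19.6, 21.4, 24.9 and 23.7 CPM in the WT libraries and at 9.65, 16.3, 7.86 and 10.3 CPM in the peg/peg libraries. All 4 mutant libraries were under all 4 WT libraries, and the second mutant was the nearest to them. The log2 difference was -1.02 (SE 0.22, unadjusted p = 0.00166 in edgeR), with an adjusted p of 0.861 in edgeR and 0.0332 in DESeq2. In HDR it stood at 15.6 ± 1.07 CPM in WT and 16.7 ± 1.51 in sg/sg (SD, n = 5), a log2 difference of 0.10 (SE 0.10, adjusted p of 1.00 in edgeR). Without the second mutant the PE2 difference was -1.28 (SE 0.15).

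Hist1h2al differed in the other direction, at a very low level in WT. It had 0, 1, 6 and 0 counts in the PE2 WT libraries and 59, 28, 74 and 63 in the peg/peg libraries, or 0.0394 ± 0.0631 and 1.35 ± 0.437 CPM (SD, n = 4). The groups did not overlap. The log2 difference was 4.94 (SE 0.92, unadjusted p = 0.000649 in edgeR), with an adjusted p of 0.861 in edgeR and 2.82e-06 in DESeq2. It was tested only because of its level in the mutants, since the WT libraries alone would not have passed the filter. The 10 HDR libraries had 0 or 1 count each. The symbol goes against the group's name: Gencode M21 gives the gene at chr13:51202727-51203065 (-) as a processed pseudogene, RefSeq names it H2af-ps2, and it lies outside the histone cluster of chromosome 13. Of its 75-base windows 45.7% also occurred in another gene, and of its 100-base windows 19.2%. Of the 60 members it was 1 of 2 annotated as pseudogenes.

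Hist2h2bb, named here after its values were seen, was too low in PE2 to pass the filter. It had 1, 0, 0 and 0 counts in WT and 4, 5, 8 and 4 in peg/peg, a ratio of 21.1 with an exact 95% interval of 3.39 to 873 that covers counting error only. All of its 75-base windows are shared with the overlapping antisense gene Gm20628, and Gm42743, the long noncoding RNA gene around it on the same strand, had 0, 2, 2 and 0 counts in WT and 77, 21, 70 and 28 in peg/peg. The log2 difference of Gm42743 was 5.44 (SE 0.86, adjusted p of 0.782 in edgeR and 7.81e-06 in DESeq2). Like Hist1h2al, Gm42743 passed the filter only through its level in the mutants, and it was named after its values were seen. Reads of the overlapping genes cannot be told apart here. In HDR, Hist2h2bb stood at 4.70 ± 1.12 CPM in WT and 4.20 ± 0.413 in sg/sg (SD, n = 5), while Gm42743 had 0 to 2 counts per library.

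**Figure D2:**
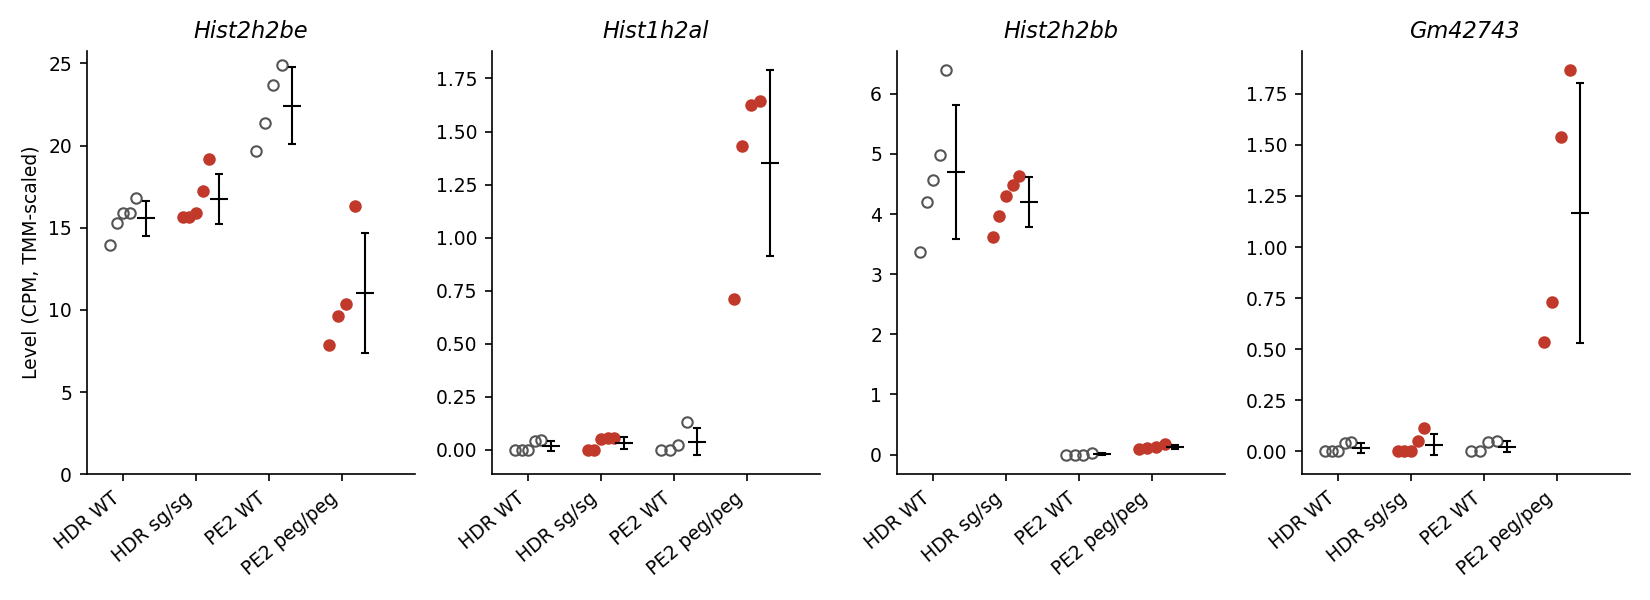
Level of Hist2h2be, Hist1h2al, Hist2h2bb and the overlapping Gm42743 in each library (y, CPM after TMM scaling), by experiment and genotype (x). Open circles are WT, filled circles are homozygous mutants, and the black bars give the mean and SD. In PE2 the mutants lie under the WT libraries for Hist2h2be and above them for the other 3 genes, while the HDR groups overlap in all 4 panels.

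Hist2h2be lies 6.51 Mb from Tspan2 on the edited chromosome. The other Hist2 genes with a count lie in the same cluster on chromosome 3. Of these, only Hist2h4 and Hist2h3c2 were tested in PE2, and neither was called. Hist2h4 stood at 0.290 ± 0.169 CPM in WT and 0.493 ± 0.104 in peg/peg (log2 difference 0.76, SE 0.48). Hist2h3c2 stood at 0.907 ± 0.208 and 0.846 ± 0.228 CPM (log2 difference -0.10, SE 0.31). In PE2, 217 genes tested by edgeR lay within 10 Mb of Tspan2, a distance chosen after the values were seen, and 21 of them (9.68%) had an unadjusted p under 0.05, against 4.30% of all genes tested. In HDR this held for 5 of 254 (1.97%), against 1.98%. Of the 33 genes DESeq2 called in PE2, 7 lay within that distance, as did 387 of the 28788 genes it tested that had a known position. Tspan2 itself is counted in each of these sets, and Hist2h2be, which prompted the count, in those of PE2. The PE2 label names 2 strains, and which strain the chromosome around Tspan2 came from in each animal was not analysed here. Any part of linked sequence in the Hist2h2be difference was not tested.

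Hist2h2be and the H2A gene Hist2h2ac point away from each other, and 191 bases separate their RefSeq starts. These are printed because Hist2h2be had no RefSeq promoter entry of its own. The sequence reads toward Hist2h2ac (chr3:96220881-96221071, -), and capitals mark, in order, 2 CCAAT boxes on the reverse strand (ATTGG), 1 CCAAT box and CCTATAAAGG, which holds both the TATA box TATAAA and a CArG box.
Hist2h2ac upstream: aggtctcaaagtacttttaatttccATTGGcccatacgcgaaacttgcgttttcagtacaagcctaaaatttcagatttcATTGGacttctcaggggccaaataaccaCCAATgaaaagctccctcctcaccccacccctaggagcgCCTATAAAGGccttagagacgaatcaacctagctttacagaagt
The CArG box CC(A/T)6GG was searched on both strands and is palindromic. It was found in 4 of 53 member promoters (7.55%), against 1.81% of 27025 RefSeq promoters (GRCm38.p6, 250 bases before to 50 after each start). Hist1h2an and Hist1h2bp, both among the 4, point away from each other with annotated starts under 250 bases apart. Their promoters therefore overlap and are not separate sequences. Hist2h2ac had 10.7 ± 3.71 CPM in HDR WT and 10.7 ± 3.38 in sg/sg (SD, n = 5), and at most 2 counts in any PE2 library. The match is a description of letters, and binding to it was not tested.

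Other promoter elements differed by class. TATAAA was found in 32 of the 53 promoters (60.4%, against 15.7% of all), CCAAT in 44 (83%, against 41.1%) and the octamer motif in 12 (22.6%, against 1.97%), each searched on both strands. CCAAT stood in every H1, H2A, H2B and H3 promoter and in 3 of 12 H4 promoters. The octamer stood in 6 of 13 H2A and 6 of 13 H2B promoters and in none of the other classes. Divergent pairs whose promoters overlap, such as Hist1h2ae and Hist1h2bg with the octamer, are counted once per gene in these shares.

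The remaining tested members did not pass a test of genotype in PE2. Of the 14 tested, 0 were called by edgeR at an adjusted p under 0.05 (background 0.0061% of all genes tested) and 2 of 49 by DESeq2 (background 0.114%), Hist2h2be and Hist1h2al. At an unadjusted p under 0.05, 1 member was higher (background 3.04%) and 1 lower (background 1.27%). The groups did not overlap for 1 tested member with the mutants higher (background 1.43%) and 1 with them lower (background 1.1%). The median log2 difference was -0.13, against 0.01 over all genes tested. Hist1h2be, an H2B gene, stood at 2.12 ± 0.634 CPM in WT and 1.44 ± 0.264 in the mutants (log2 difference -0.56, SE 0.29). Hist1h1c, at 44.7 ± 5.53 and 47.6 ± 10.7 CPM, differed by 0.09 (SE 0.17), and Hist1h2bc, at 34.0 ± 4.79 and 31.7 ± 4.34 CPM, by -0.10 (SE 0.14).

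In HDR 31 members were tested, and no member passed the adjusted threshold. The count called was 0 in edgeR (background 0.00609%) and 0 in DESeq2 (background 0.00933%). In edgeR 0 members were higher (background 0.353%) and 1 lower (background 1.63%) at an unadjusted p under 0.05, and in DESeq2 4 of 60 had such a p, all lower (background 0.798%). The 1 member was Hist1h1a, an H1 gene, at 2.06, 1.89, 2.87, 2.91 and 4.78 CPM in WT and 1.53, 1.40, 1.98, 2.15 and 2.39 CPM in sg/sg. These groups overlapped. Its log2 difference was -0.62 (SE 0.28, unadjusted p = 0.0499 and adjusted p = 1.00 in edgeR). No tested member had groups without overlap (background 0.122% higher and 0.195% lower). The median log2 difference was -0.10, against 0.00 over all genes, and 21 of 31 members had a negative sign. Hist1h1e stood at 71.0 ± 10.4 CPM in WT and 79.6 ± 14.9 in sg/sg, and Hist1h4d at 54.6 ± 20.2 and 55.5 ± 19.3 CPM.

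**Figure D3:**
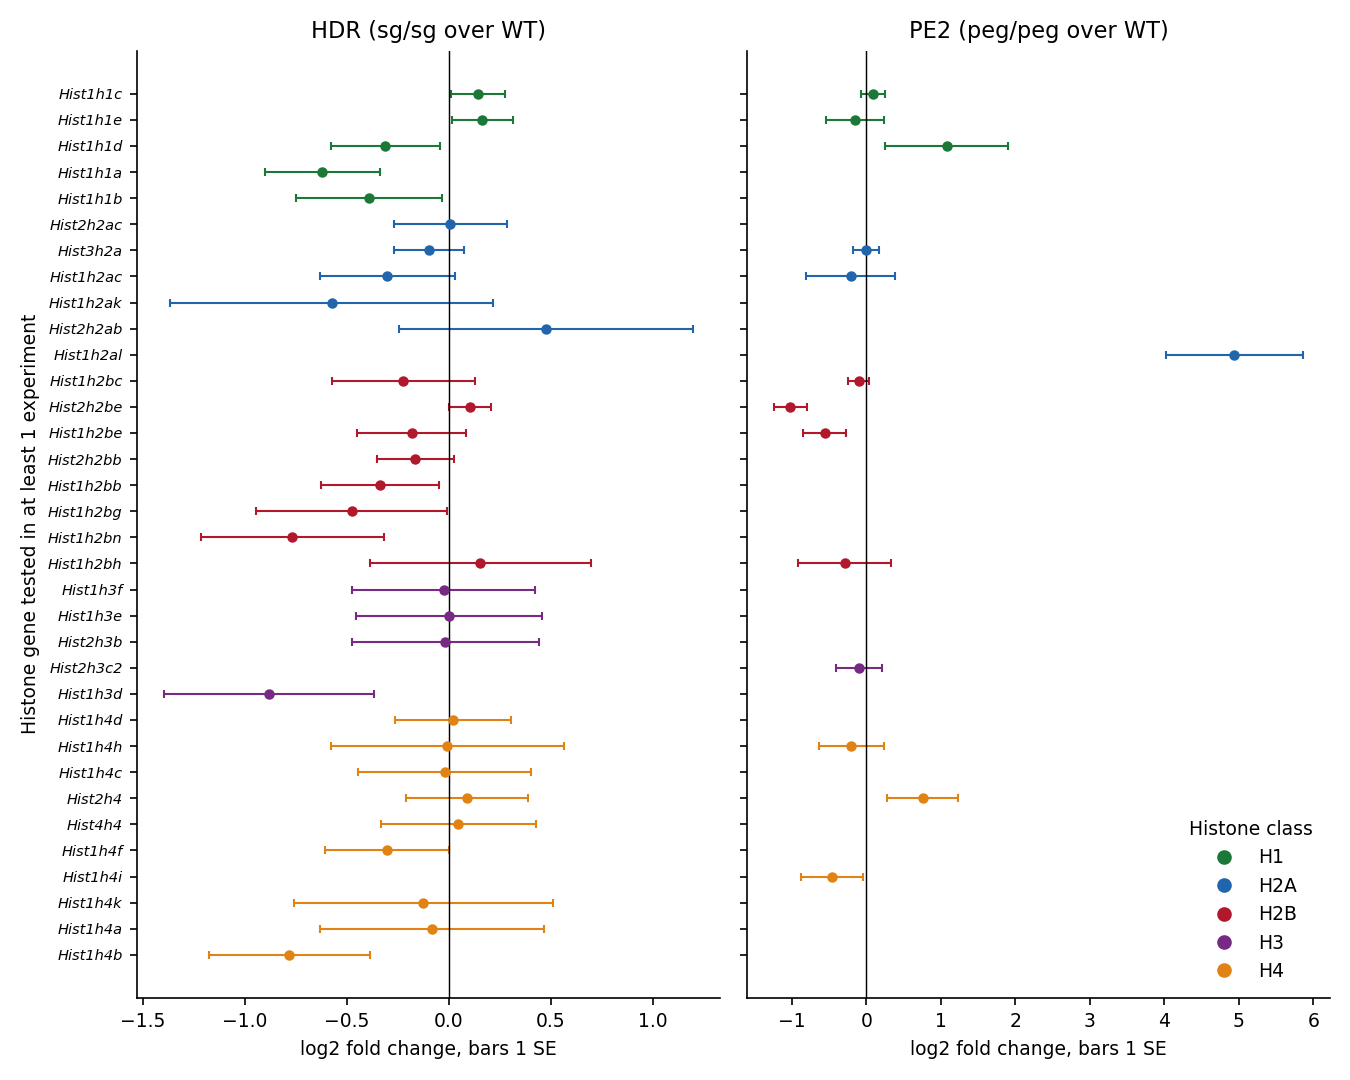
log2 fold change of mutant over WT (x, bars 1 SE) for the 34 histone genes tested by edgeR in at least 1 experiment (y), HDR on the left and PE2 on the right, with different x scales. Colours give the histone class. Hist2h2be at -1.02 and Hist1h2al at 4.94 are the PE2 members with an unadjusted p under 0.05, and Hist1h1a at -0.62 is the HDR one.

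The difference between the genotype effects was tested in a fit over all 18 libraries. Of 38 members, 0 were called by edgeR (background 0% of all genes) and 3 had an unadjusted p under 0.05 (background 5.13%): Hist2h2bb, Hist2h2be and Hist1h2al. For Hist2h2be the effect in PE2 minus that in HDR was -1.15 (SE 0.22, adjusted p = 0.436 in edgeR, 0.0154 in DESeq2). DESeq2 called this member alone (background 0.0275%). For Hist2h2bb the difference was 3.81 (SE 0.61, adjusted p = 0.145 in edgeR, 0.132 in DESeq2) and for Hist1h2al 4.23 (SE 1.84, adjusted p = 0.954 in edgeR, 0.733 in DESeq2). Hist2h2bb entered this fit only through its HDR level, with 1 count in PE2 WT and 21 in peg/peg. Hist1h2al entered it only through its level in peg/peg.

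The summed level of the 60 members varied more between libraries than between genotypes. In HDR it was 278, 283, 402, 488 and 533 CPM in the WT libraries and 351, 296, 400, 470 and 485 CPM in sg/sg, a ratio of means of 1.01. In PE2 it was 110, 110, 116 and 122 CPM in WT and 95.1, 97.7, 126 and 96.3 CPM in peg/peg, a ratio of 0.907. The groups overlapped in both experiments. In PE2 the 16 H2B genes summed to 59.5 ± 4.15 CPM in WT and 45.0 ± 4.44 in peg/peg and, without Hist2h2be, stood at 37.1 ± 5.31 and 34.0 ± 4.74 CPM (SD, n = 4). The third peg/peg library, the highest in sum, also had the highest summed skeletal muscle markers (1134 CPM, against 7.72 to 20.2 in the other 7 PE2 libraries) and the lowest Hist2h2be. Of the 6 skeletal muscle markers, 5 were tested in PE2, 2 of them with a negative log2 difference. Ckm and Acta1 were higher in the mutants at an unadjusted p under 0.05 (background 3.04%). In HDR all 6 were tested, and Mylpf, Myh1 and Myh4 were higher in the mutants at such a p (background 0.353%), 1 of the 6 being called by DESeq2. The other way, 2 of the 6 had a negative log2 difference in HDR, Acta1 at -1.99 (SE 1.29) and Ckm at -0.50 (SE 0.96). The 6 markers summed to 30.4 ± 53.8 CPM in HDR WT and 28.9 ± 27.1 in sg/sg (SD, n = 5). The part of these markers in the histone values was not tested.

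The HDR libraries differed with the small nuclear RNA Rnu12, which has no poly(A) tail. It stood at 3.60 to 4.80 CPM of the library total in 4 libraries, 2 of each genotype, and at 15.8 to 24.2 CPM in the other 6. The summed histone level was 278 to 351 CPM in those 4 and 400 to 533 CPM in the other 6, and the ranges did not overlap. The H4 genes ranged from 61.2 to 83.6 CPM in the 4 and from 118 to 216 CPM in the 6. The 12 RNAs without a poly(A) tail, Rnu12 among them, did not split this way. They summed to 12848 to 22786 CPM in the 4 and to 18167 to 30592 CPM in the 6, and these ranges overlapped. The mutant to WT ratio of the sum was 1.15 within the 4 libraries and 0.952 within the 6. What sets these libraries apart was not tested.

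**Figure D4:**
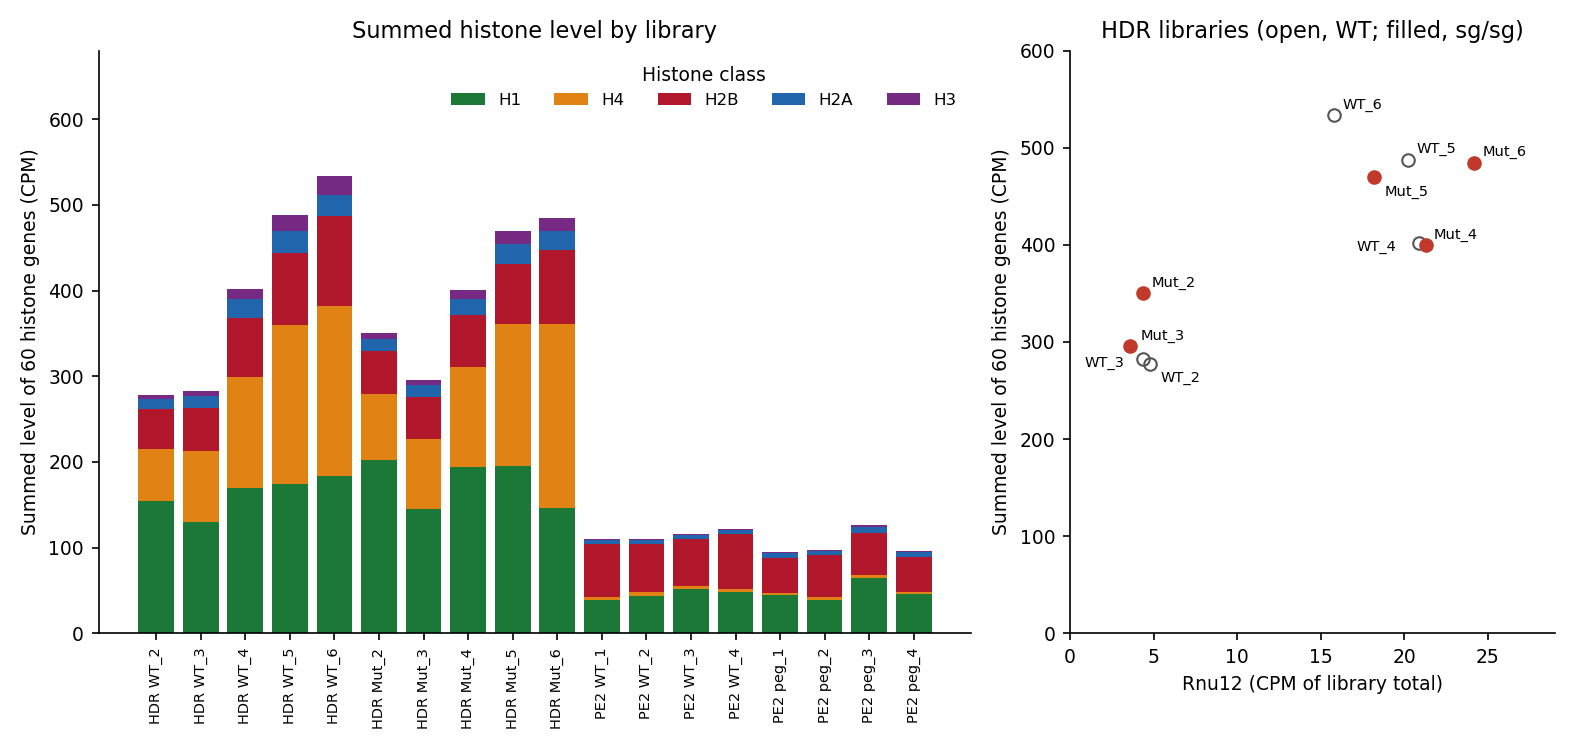
Left, summed level of the 60 histone genes in each library (y, CPM), with bars that start at 0 and are split by histone class. Right, the HDR libraries by Rnu12 (x, CPM of the library total) and summed histone level (y, CPM), open circles WT and filled circles sg/sg. The 4 libraries with Rnu12 under 10 CPM lie at 278 to 351 CPM and the other 6 at 400 to 533 CPM.

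Genes that work with histone supply were read beside the family. Of 32 DNA replication and cell cycle genes, 31 were tested in HDR. There 5 had an unadjusted p under 0.05 and all were lower (background 1.63% lower and 0.353% higher), none passing the adjustment in edgeR. Mki67, a marker of cycling cells, stood at 12.5 ± 3.98 CPM in WT and 6.26 ± 1.30 in sg/sg (log2 difference -1.002, SE 0.22), and Top2a, Ccna2, Cdk1 and E2f2 were the others. The rest of the list did not share this fall. Of the 31, 19 had a negative log2 difference, and the median was -0.05. Mcm6, the most abundant of the list, stood at 48.2 ± 10.2 CPM in WT and 57.6 ± 8.06 in sg/sg (log2 difference 0.26, SE 0.15). All 32 summed to 276 ± 29.9 and 272 ± 16.5 CPM. In PE2 none of the 32 had an unadjusted p under 0.05 (background 4.30%), and Mki67 was 18.2 ± 6.76 and 22.4 ± 13.7 CPM. Among 24 genes of histone mRNA transcription, 3′ end processing and decay, 0 had an unadjusted p under 0.05 in either experiment (background 1.98% in HDR and 4.30% in PE2), and the stem-loop binding protein gene Slbp stood at 13.7 ± 3.19 and 14.7 ± 3.22 CPM in HDR and 17.5 ± 1.98 and 15.6 ± 0.864 CPM in PE2. None of 19 histone chaperone genes had one either, nor any of the 10 and 11 tested of 18 replication-independent and variant histone genes. H3f3b, which encodes the variant H3.3, stood at 164 ± 13.1 and 185 ± 17.8 CPM in HDR and at 228 ± 29.1 and 197 ± 42.4 CPM in PE2. H1f0, a linker histone gene of resting cells, stood at 69.4 ± 11.2 and 66.3 ± 10.1 CPM in HDR and at 208 ± 34.7 and 170 ± 41.0 CPM in PE2.

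Markers of thymocytes and lymphocytes, cells that cycle and make histones, differed between libraries. In PE2 the 13 markers summed to 5.69 to 23.1 CPM in WT and 4.66 to 11.1 CPM in peg/peg, and Rag1, Cd8a, Cd8b1 and Lck were lower at an unadjusted p under 0.05 in edgeR (4 of 10 tested, 0 higher, background 1.27% lower). None of the 4 passed the adjustment in edgeR, and DESeq2 called Rag1 (adjusted p = 0.0336). In HDR 0 of 7 tested had such a p, and the sum was highest, at 19.1 CPM, in the WT library that was also highest in summed histone level. Other HDR libraries went apart: a mutant with a marker sum of 12.9 CPM had a summed histone level of 351 CPM. Another mutant, with a marker sum of 4.52 CPM, had 485 CPM. None of the 13 was at 0 over a whole experiment. Their part in the histone values was not tested.

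Genes outside the family most like Hist2h2be or Hist1h2al in pattern were sought among all genes tested in PE2, by Pearson's r of log2(CPM + 1) over the 8 libraries. For Hist2h2be these were Hjv (r = 0.968), 1810062G17Rik (0.963), S100a11 (0.950), Tial1 (0.946) and Gm43267 (0.941), the first 3 of which lie on chromosome 3. For Hist1h2al they were Vcpip1 (r = 0.965), Katnal1 (0.960), Gm3608 (0.956), Usp45 (0.954) and Gm4815 (0.944). The libraries share genotype, so r describes that difference too.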

How the data were processed

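Bulk RNA sequencing of 18 mouse aortae, each a separate sample, was analysed from the raw counts per gene that the authors deposited. Per the methods and the labels, the authors used fastp for trimming, STAR 2.7.0f for alignment to GRCm38, and featureCounts of Subread 1.6.4 with Gencode M22 for counting. The strand setting is not given in the sources used here. The authors' DESeq2 1.22.1 normalised tables were not used, and 0 columns of the count tables were left out. Every gene of an experiment entered 1 fit of these counts with edgeR 4.0.16 under R 4.3.3 (filterByExpr, TMM, glmQLFit, glmQLFTest on genotype, Benjamini-Hochberg adjustment, threshold 0.05), and a 4-group fit gave the WT contrast and the difference of the effects. DESeq2 1.42.0 was the alternative tool. The scripts were tested on simulated data. Members and lists were chosen with earlier results of these data known. Members were named by rule: Hist2h2be and Hist1h2al, the 10 highest, the 2 highest of each class, and those called by either tool, with an unadjusted p under 0.05 in edgeR or with groups that do not overlap. Of the other lists, only some of the 2 highest genes and of those at such a p are named. Genes such as Slbp, Hist2h2bb and Gm42743 were named outside this rule. Annotation came from Gencode M21. Of the 60 members, 24 share over 50% of their 75-base windows with another gene, so their counts could be split or lost.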

Additional observations from a re-analysis of the deposited data

Results flagged for a closer look

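Among 64 groups of 4 or 5 libraries checked with Dixon's test, of which chance flags about 1 in 20, 5 had a library far from the rest. In the PE2 mutants the summed histone level reached 126 CPM in the third library, against 97.7 CPM for the next. Hist2h4 had 0.339 CPM in the lowest PE2 mutant, against 0.527 CPM for the next. Hist1h1e had 0.552 CPM in the highest PE2 WT library, against 0.280 CPM for the next. In single PE2 mutant libraries Hist1h3e had 0.0439 CPM and Hist2h2ac 0.0485 CPM where the other 3 were at 0. These last values rest on a few counts.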

How the results depend on the processing

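The 2-level Rnu12 term, the values within the Rnu12 levels and the WT contrast were chosen after seeing the data. The count of HDR members lower at an unadjusted p under 0.05 (1) was 4 in DESeq2 (background 0.798%), 8 of 60 with no filter on low counts (background 1.45%), 2 with the Rnu12 term (background 1.91%), and 0 in limma-voom, with DESeq2 size factors and with robust dispersions; over single libraries left out it ran from 0 to 2. In PE2 the count called (0) was 2 in DESeq2. The PE2 members higher at that p (1) were 2 in DESeq2 (background 2.33%) and with no filter (background 2.86%), and 0 with at least 10 counts in every library, which drops Hist1h2al; with a library left out, the higher and the lower count each ran from 1 to 2. The members whose effect differed between experiments (0) were 1 in DESeq2 and from 0 to 1 with a library left out: Hist2h2bb without the first PE2 WT library and Hist2h2be without the second PE2 mutant. The medians and the summed ratios moved by less than the spread between libraries. Hist2h2be in PE2 ran from -1.28 to -0.90 and Hist1h2al from 4.56 to 6.89 with a library left out, and their adjusted p over all alternatives ran from 0.0332 and 2.82e-06 to 0.993. With DESeq2 Hist1h4h in HDR was 0.0061, with its size factors 0.0042 and with the Rnu12 term 5.37e-05; Hist1h3f was 0.021 in limma-voom and 0.065 with the Rnu12 term. Hist1h3e was -0.015 with no filter and -0.0019 with at least 10 counts, and Hist2h2ac -0.0094 with no filter. With a library left out, log2 values that changed sign in HDR ran from -0.43 to 0.29 for Hist1h4h, -0.23 to 0.17 for Hist1h3f, -0.24 to 0.24 for Hist1h3e, -0.16 to 0.19 for Hist1h4d, -0.48 to 0.093 for Hist1h2bc, -0.29 to 0.21 for Hist1h4c, -0.13 to 0.13 for Hist2h2ac and -0.10 to 0.24 for Hist2h4, and in PE2 from -0.11 to 0.046 for Hist3h2a, -0.28 to 0.20 for Hist1h1e and -0.085 to 0.17 for Hist1h1c. None of these 11 was called, and the cause was not tested. In PE2 the replicate numbers did not pair the samples: the correlations of same-numbered libraries were 0.033, -0.24, -0.058 and -0.29. With the replicate number as a block Hist2h2be was -1.07 and Hist1h2al 5.37, 0 members were called, and the median was -0.09. For HDR, No paired analysis was possible because the columns carry no label number. In PE2 46 of 60 members were too low to test and 11 had no count, although its libraries held more counts than those of HDR; the p-values measure the spread between these aortae alone.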
